A study of Mus musculus with 3 samples.

Results

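The genes described here are the D-type cyclins Ccnd1, Ccnd2 and Ccnd3, their partner kinases Cdk4 and Cdk6, and the CDK inhibitors Cdkn1a, Cdkn1b, Cdkn1c, Cdkn2c and Cdkn2d. They are 10 of the 32285 genes in the count tables, were matched by gene symbol, and all 10 had UMIs (distinct mRNA tags) in each library. The set was chosen with earlier results of these data known. Mouse bone marrow was profiled by single-cell RNA sequencing, with 1 library for each of 3 genotypes. The Lztr1 knockout library is Lztr1fl/fl;Mx1Cre+, the Rit1-M90I library is Rit1M90I/+;Mx1Cre+, and the control library is Rit1M90I/+Mx1Cre-, which its title also calls wild type. All mice were 8 weeks old when they received 3 doses of pIpC at 12 mg/kg, an RNA mimic that induces interferon and with it the Mx1-Cre recombinase, and marrow was taken 4 weeks later. Mx1-Cre is active in blood cells and in other interferon-responsive tissues, and the labels do not state how many mice went into a library. Live cells negative for CD3, CD11b, Gr1, B220 and Ter119 were sorted, which depletes mature cells of the T, B, myeloid and erythroid lineages. The comparison addresses how marrow progenitors differ when LZTR1, the ubiquitin ligase adaptor that marks the small GTPase RIT1 for breakdown, is lost or when RIT1 carries the M90I change. Cre is present in both mutants and absent from the control, and what it adds cannot be told apart from the genotypes. The control, but not the Lztr1 knockout, is labelled with the Rit1M90I/+ allele, and no Lztr1fl/fl library without Cre is present. The labels do not state whether that allele is silent without Cre.

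A cell that passes from G1 into S phase does so through D-type cyclins, which bind CDK4 or CDK6 and phosphorylate the retinoblastoma protein RB, so that E2F transcription factors are released. Signals from growth factor receptors through RAS and ERK raise D cyclin transcription, which places these genes downstream of the pathway that RIT1 feeds. The INK4 inhibitors p18 (Cdkn2c) and p19 (Cdkn2d) bind CDK4 and CDK6 themselves, while the CIP/KIP inhibitors p21 (Cdkn1a), p27 (Cdkn1b) and p57 (Cdkn1c) act on cyclin and CDK complexes, with p21 known as a p53 target and p57 known for holding blood stem cells out of cycle. In mouse blood formation the D cyclins are used by different lineages, with cyclin D3 known for its role in erythroid cells and lymphocytes, and CDK6 for its role in stem cells.

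The 3 libraries held 3014 barcodes (Lztr1 knockout), 11573 barcodes (Rit1-M90I) and 8476 barcodes (control), of which 2339 (Lztr1 knockout), 9351 (Rit1-M90I) and 7262 (control) were kept. Kept cells totalled 27601550 UMIs in the Lztr1 knockout, 79563745 in Rit1-M90I and 62218135 in the control. Median UMIs per kept cell were 9922 (Lztr1 knockout), 6588 (Rit1-M90I) and 6855 (control). Pairs of libraries shared between 2 and 9 barcodes. Lztr1 had 6.30 CPM in the Lztr1 knockout, 15.2 in Rit1-M90I and 17.3 in the control, and Rit1 had 11.8 CPM in the Lztr1 knockout, 13.5 in Rit1-M90I and 8.60 in the control. CPM is the number of UMIs of a gene per 1000000 UMIs of all genes, summed over the cells of a population in a library. These 3' tags may lie outside the deleted part of Lztr1, so they do not measure the deletion itself. Cells were placed by marker genes in 16 populations, none defined by a gene described here, and the 13 populations with at least 30 cells in every library are used for levels. The leading genes of each gate held at least 4 of its markers among 10, but the lymphoid progenitor gate also led with the plasmacytoid dendritic marker Cox6a2, and only 1 of 3 held-out markers of the plasmacytoid dendritic gate was 2-fold higher there. The plasmacytoid dendritic gate led with Ccnd1 itself among its 10 genes. Lymphoid progenitor markers in this gate summed to 2265 CPM in the Lztr1 knockout, 2348 in Rit1-M90I and 2184 in the control. Its own markers summed there to 4390 CPM in the Lztr1 knockout, 4622 in Rit1-M90I and 4198 in the control. The name of this gate stands for its markers, and whether its cells are mature or precursors was not tested. Genes on the opposite strand overlap Ccnd1 (LTO1), Ccnd2 (Gm43126 and 9330179D12Rik), Ccnd3 (Bysl), Cdk4 (Tspan31), Cdk6 (Gm17590 and Gm42435) and Cdkn1c (Gm44732), and reads of such pairs may not be separated, as no source used here states whether counting used strand. Parentheses after a value give its 95% interval for counting error, which says nothing of the spread between mice, since no genotype was repeated.

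The upstream regions of Cdk4, Cdkn2c and Cdkn2d are shown because the transcripts of these genes moved with proliferation genes or carried the E2F site letters, as described further on. They come from RefSeq windows (GRCm38.p6) of 250 bases before a transcript start, which were given for 7 of the 10 genes. Capitals mark CACGTG (E-box) in Cdk4 (chr10:127063285-127063534, plus strand) and GGCGGGA (E2F) in Cdkn2c (second start, chr4:109666757-109667006, minus strand) and Cdkn2d (chr9:21291210-21291459, minus strand).
Cdk4: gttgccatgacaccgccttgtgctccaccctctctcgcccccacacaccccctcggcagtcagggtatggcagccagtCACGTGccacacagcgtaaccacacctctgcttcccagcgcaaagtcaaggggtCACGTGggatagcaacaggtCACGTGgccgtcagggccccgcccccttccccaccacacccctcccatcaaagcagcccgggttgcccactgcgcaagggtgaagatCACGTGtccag
Cdkn2c: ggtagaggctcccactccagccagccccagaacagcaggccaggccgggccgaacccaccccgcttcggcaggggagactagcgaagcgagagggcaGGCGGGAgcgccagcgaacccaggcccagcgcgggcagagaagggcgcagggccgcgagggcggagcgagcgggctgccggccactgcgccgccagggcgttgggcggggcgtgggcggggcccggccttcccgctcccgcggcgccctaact
Cdkn2d: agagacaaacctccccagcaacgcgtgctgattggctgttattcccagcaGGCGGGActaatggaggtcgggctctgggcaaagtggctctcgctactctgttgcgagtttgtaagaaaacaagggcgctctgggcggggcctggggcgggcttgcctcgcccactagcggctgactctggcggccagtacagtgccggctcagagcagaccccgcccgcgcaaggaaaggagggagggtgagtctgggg
Both strands were searched for each motif, and CACGTG reads the same on each. The 4 CACGTG matches upstream of Cdk4 do not overlap each other. Of 32851 such windows of all genes, 6.02% held CACGTG, 9.75% held GGCGGGA and 16.6% held either AGATAA or the variant TGATAA, letters known for binding GATA factors. None of the 10 windows of the genes described held a GATA match, Cdk6 held 1 CACGTG, and Ccnd3, Cdkn1a and Cdkn1b held no match to any motif searched. CACGTG was chosen after the Cdk4 sequence had been seen. A match is a description of the letters, and no binding was measured.

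The D cyclins were divided among the lineages. On the mean over the libraries, Ccnd1 was highest in plasmacytoid dendritic cells, Ccnd2 in T cells and Ccnd3 in erythroblasts, where Ccnd1 and Ccnd2 had their lowest means. In the control Ccnd3 was higher in plasmacytoid dendritic cells than in erythroblasts, and the range of Ccnd1 in erythroblasts overlapped that of basophils and mast cells above it. Ccnd1 (cyclin D1, ENSMUSG00000070348, chr7:144929931-144939925, minus strand, mm10) had 363 CPM (319 to 412) in plasmacytoid dendritic cells of the Lztr1 knockout, 323 (298 to 351) in those of Rit1-M90I and 295 (269 to 324) in those of the control. Conventional dendritic cells followed with 153 CPM in the Lztr1 knockout, 147 in Rit1-M90I and 168 in the control. No other population reached the plasmacytoid dendritic range, and conventional dendritic cells also stood clear of the monocyte lineage below them. Erythroblasts were at the other end with 5.44 CPM in the Lztr1 knockout, 3.66 in Rit1-M90I and 3.23 in the control, so that the mean over the libraries spanned 79.7-fold from the highest to the lowest population. After each cell was thinned to 3000 UMIs, 58.0% of plasmacytoid dendritic cells in the Lztr1 knockout, 53.5% in Rit1-M90I and 48.9% in the control had a Ccnd1 UMI, against erythroblast shares of 0% in the Lztr1 knockout, 0% in Rit1-M90I and 1.14% in the control. Before thinning the shares of plasmacytoid dendritic cells were 77.4% in the Lztr1 knockout, 65.3% in Rit1-M90I and 63.2% in the control, at median depths of 5179 to 6667 UMIs. Those of erythroblasts were 5.26% in the Lztr1 knockout, 4.73% in Rit1-M90I and 4.40% in the control, at 13463 to 14898 UMIs.

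Ccnd2 (cyclin D2, chr6:127125162-127152193, minus strand) had 558 CPM (468 to 661) in T cells of the Lztr1 knockout, 616 (569 to 665) in Rit1-M90I and 584 (545 to 626) in the control. NK and innate lymphoid cells, lymphoid progenitors and the megakaryocyte lineage followed with means of 454, 419 and 385 CPM, whose ranges over the libraries overlapped from each to the next. Erythroblasts held 21.1 CPM in the Lztr1 knockout, 20.9 in Rit1-M90I and 26.7 in the control, 25.6-fold below T cells on the mean. Plasma cells had 104 CPM in the Lztr1 knockout, 88.9 in Rit1-M90I and 92.0 in the control. Immunoglobulin took a share of their UMIs of 55.5% in the Lztr1 knockout, 52.3% in Rit1-M90I and 57.9% in the control. Without it and globin their Ccnd2 stood at 234 CPM in the Lztr1 knockout, 186 in Rit1-M90I and 219 in the control.

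Ccnd3 (cyclin D3, chr17:47505051-47599691, plus strand) had 492 CPM (457 to 529) in erythroblasts of the Lztr1 knockout, 511 (480 to 544) in Rit1-M90I and 423 (388 to 461) in the control. Plasmacytoid dendritic cells had 431 CPM in the Lztr1 knockout, 313 in Rit1-M90I and 446 in the control. This range overlapped that of erythroblasts, and both stood above T cells, whose mean was 230 CPM. The plasma cell and neutrophil progenitor gates were lowest with means of 23.2 and 48.8 CPM. Plasma cells without immunoglobulin and globin UMIs had 42.8 CPM of Ccnd3 in the Lztr1 knockout, 60.5 in Rit1-M90I and 51.5 in the control, which overlapped the neutrophil progenitors (56.7 CPM in the Lztr1 knockout, 41.8 in Rit1-M90I and 47.8 in the control).

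The erythroid gates showed an exchange of D cyclins within 1 lineage. From erythroid progenitors to erythroblasts, Ccnd3 was 9.81-fold higher (8.66 to 11.1) in the Lztr1 knockout, 7.74-fold (7.06 to 8.48) in Rit1-M90I and 6.78-fold (6.09 to 7.55) in the control. As a fraction of the progenitor level, Ccnd2 in erythroblasts was 0.14 (0.09 to 0.19) in the Lztr1 knockout, 0.15 (0.11 to 0.20) in Rit1-M90I and 0.17 (0.12 to 0.24) in the control. That of Cdk6 was 0.27 in the Lztr1 knockout, 0.29 in Rit1-M90I and 0.35 in the control, while that of Cdk4 was 0.87 in the Lztr1 knockout, 0.95 in Rit1-M90I and 0.93 in the control. The INK4 inhibitor Cdkn2c was higher in erythroblasts, 5.50-fold in the Lztr1 knockout, 3.94-fold in Rit1-M90I and 5.21-fold in the control. Every library gave the same directions for Ccnd3, Ccnd2, Cdk6 and Cdkn2c. Cdk4 lay close to the progenitor level, and its fractions are given without an interval, so no direction is read from them. The erythroblast gate held 95 cells in the Lztr1 knockout, 148 in Rit1-M90I and 91 in the control. Of erythroblasts with at least 3000 UMIs, 97.8% were high in proliferation genes in the Lztr1 knockout, 94.6% in Rit1-M90I and 97.7% in the control. Of such erythroid progenitors, 73.9% were high in the Lztr1 knockout, 73.1% in Rit1-M90I and 72.6% in the control, as divided below. Within erythroid progenitors, Ccnd2 and Cdk6 were lower in high cells of every library, while the Ccnd3 intervals held 1. The part of the high share in the gate differences was not tested.

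**Figure D1:**
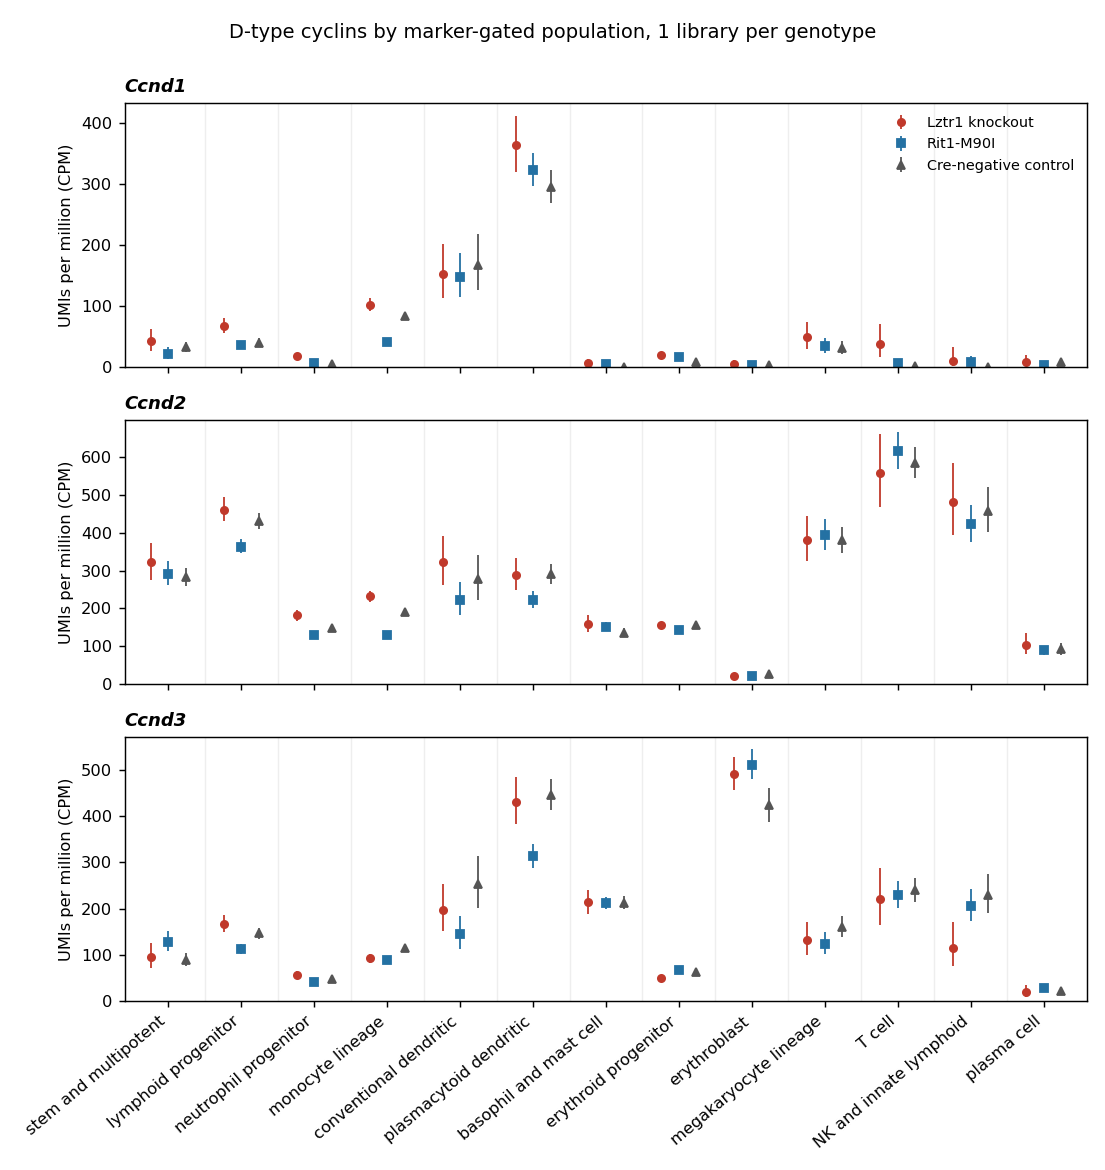
Levels of the D-type cyclins in CPM (vertical axis, from 0) for 13 marker-gated populations (horizontal axis); circles are the Lztr1 knockout, squares Rit1-M90I and triangles the Cre-negative control, with 95% Poisson intervals for counting error. On the mean over the libraries Ccnd1 peaks in plasmacytoid dendritic cells (363 CPM in the Lztr1 knockout, 323 in Rit1-M90I and 295 in the control), Ccnd2 in T cells (558 CPM in the Lztr1 knockout, 616 in Rit1-M90I and 584 in the control) and Ccnd3 in erythroblasts (492 CPM in the Lztr1 knockout, 511 in Rit1-M90I and 423 in the control), where the range of Ccnd3 overlaps that of plasmacytoid dendritic cells.

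The 2 kinases had flatter profiles than the cyclins. Cdk4 (chr10:127063534-127067920, plus strand) had 300 CPM (288 to 312) in erythroid progenitors of the Lztr1 knockout, 286 (277 to 295) in Rit1-M90I and 305 (297 to 314) in the control. Its 8 highest populations, down to the megakaryocyte lineage at a mean of 233 CPM, each overlapped the next over the 3 libraries, and conventional dendritic cells at 176 CPM stood apart below them. Basophils and mast cells had 102 CPM in the Lztr1 knockout, 71.7 in Rit1-M90I and 89.0 in the control. T cells had 125 CPM in the Lztr1 knockout, 103 in Rit1-M90I and 65.3 in the control, and plasma cells had 69.3 CPM in the Lztr1 knockout, 84.8 in Rit1-M90I and 61.1 in the control. Without immunoglobulin and globin UMIs, plasma cells had 156 CPM of Cdk4 in the Lztr1 knockout, 178 in Rit1-M90I and 145 in the control. The span from the highest mean to the lowest, that of plasma cells with immunoglobulin counted, was 4.14-fold. Without those UMIs plasma cells lay above basophils and mast cells in every library, so the lowest gate and the span depend on the denominator.

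Cdk6 (chr5:3341485-3531008, plus strand) had 811 CPM (728 to 900) in the megakaryocyte lineage of the Lztr1 knockout, 716 (664 to 772) in Rit1-M90I and 718 (671 to 767) in the control. Stem and multipotent cells had 753 CPM in the Lztr1 knockout, 713 in Rit1-M90I and 729 in the control and could not be set apart from the megakaryocyte lineage. Lymphoid progenitors came next with 573 CPM in the Lztr1 knockout, 592 in Rit1-M90I and 539 in the control, below both in every library. Erythroblasts (112 CPM in the Lztr1 knockout, 118 in Rit1-M90I and 145 in the control) and plasma cells (79.7 CPM in the Lztr1 knockout, 108 in Rit1-M90I and 73.0 in the control) were lowest. Without immunoglobulin and globin UMIs, plasma cells had 179 CPM of Cdk6 in the Lztr1 knockout, 227 in Rit1-M90I and 173 in the control, above erythroblasts, so the order of these last 2 gates depends on the denominator.

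Among the CIP/KIP inhibitors, Cdkn1b (p27, chr6:134920401-134925513, plus strand) was the most widely detected. Basophils and mast cells had 142 CPM (122 to 165) in the Lztr1 knockout, 138 (128 to 149) in Rit1-M90I and 137 (125 to 149) in the control. NK and innate lymphoid cells (148 CPM in the Lztr1 knockout, 101 in Rit1-M90I and 113 in the control) and T cells (70.8 CPM in the Lztr1 knockout, 102 in Rit1-M90I and 105 in the control) overlapped that range or lay next to it. Neutrophil progenitors were lowest with 21.4 CPM in the Lztr1 knockout, 16.2 in Rit1-M90I and 19.8 in the control, below erythroid progenitors at 24.7 CPM in the Lztr1 knockout, 28.8 in Rit1-M90I and 26.6 in the control. The 3 libraries gave almost the same Cdkn1b level in basophils and mast cells, with ratios to the control of 1.04 (0.87 to 1.23) for the Lztr1 knockout and 1.01 (0.90 to 1.13) in the Rit1-M90I library.

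Cdkn1a (p21, chr17:29090976-29100727, plus strand) had 32.2 CPM (24.5 to 41.5) in lymphoid progenitors of the Lztr1 knockout, 36.6 (31.0 to 42.9) in Rit1-M90I and 41.5 (35.3 to 48.4) in the control. In conventional dendritic cells it had 31.8 CPM (10 UMIs) in the Lztr1 knockout, 13.01 (6 UMIs) in Rit1-M90I and 54.8 (18 UMIs) in the control. Plasmacytoid dendritic cells had 21.0 CPM in the Lztr1 knockout, 16.6 in Rit1-M90I and 18.8 in the control. Those 3 gates stood above the other 10 on the mean over the libraries. Erythroid progenitors had 1.30 CPM in the Lztr1 knockout, 0.727 in Rit1-M90I and 1.41 in the control.

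Cdkn1c (p57, chr7:143458339-143461050, minus strand) was close to the limit of detection, with 31, 73 and 52 UMIs in all kept cells of the Lztr1 knockout, Rit1-M90I and the control. Stem and multipotent cells had 5.48 CPM (1.13 to 16.01, 3 UMIs) in the Lztr1 knockout, 13.5 (7.54 to 22.2, 15 UMIs) in Rit1-M90I and 8.10 (4.53 to 13.4, 15 UMIs) in the control. NK and innate lymphoid cells had 4.63 CPM (1 UMI) in the Lztr1 knockout, 11.6 (8 UMIs) in Rit1-M90I and 3.82 (2 UMIs) in the control. The share of thinned stem and multipotent cells with a Cdkn1c UMI was 1.61% in the Lztr1 knockout, 3.74% in Rit1-M90I and 3.18% in the control. In the monocyte lineage it was 0.36% in the Lztr1 knockout, 0% in Rit1-M90I and 0.13% in the control. Conventional dendritic cells had none in any library, which by 3 counts allows up to 9.55 CPM in the Lztr1 knockout, 6.50 in Rit1-M90I and 9.14 in the control.

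The INK4 inhibitors had different leading populations. Cdkn2c (p18, chr4:109660876-109667189, minus strand) had 68.0 CPM (55.3 to 82.7) in erythroblasts of the Lztr1 knockout, 59.0 (48.6 to 71.0) in Rit1-M90I and 55.7 (43.4 to 70.5) in the control. Plasmacytoid dendritic cells followed with 52.6 CPM in the Lztr1 knockout, 41.4 in Rit1-M90I and 50.6 in the control, and neutrophil progenitors were lowest with 5.58 CPM in the Lztr1 knockout, 5.81 in Rit1-M90I and 5.04 in the control. Cdkn2d (p19, chr9:21288410-21291407, minus strand) in plasmacytoid dendritic cells had 99.1 CPM (76.7 to 126) in the Lztr1 knockout, 97.1 (83.3 to 113) in Rit1-M90I and 132 (114 to 151) in the control. Conventional dendritic cells, basophils and mast cells, T cells and the megakaryocyte lineage came next with overlapping ranges and means of 86.9, 84.6, 80.4 and 79.9 CPM. Erythroid progenitors had 10.8 CPM of Cdkn2d in the Lztr1 knockout, 12.0 in Rit1-M90I and 11.8 in the control. Erythroblasts had 23.1 CPM in the Lztr1 knockout, 26.1 in Rit1-M90I and 15.3 in the control, so that the gate with the highest Cdkn2c was among the lower ones for Cdkn2d.

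**Figure D2:**
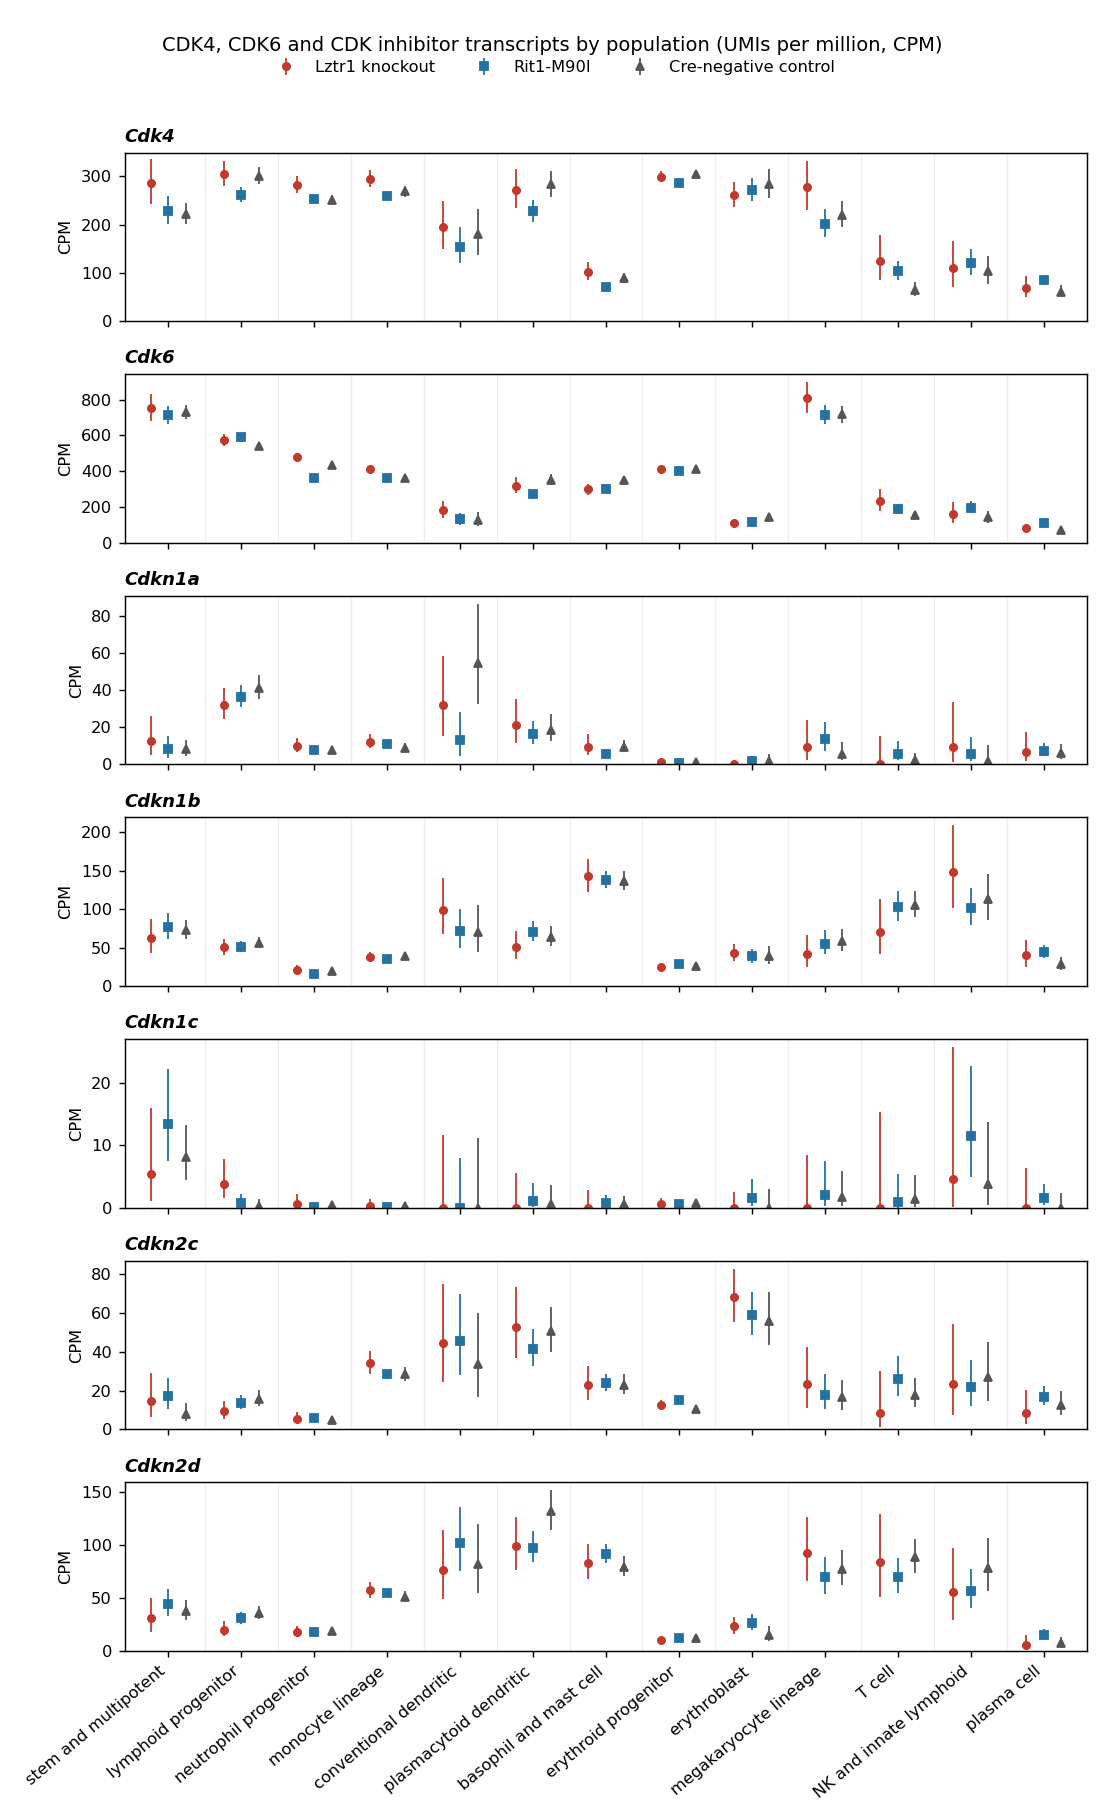
Levels of the kinases Cdk4 and Cdk6 and of 5 CDK inhibitors in CPM (vertical axes, each from 0) for the same 13 populations; circles are the Lztr1 knockout, squares Rit1-M90I and triangles the control, with 95% Poisson intervals for counting error. On the mean over the libraries Cdk6 is highest in the megakaryocyte lineage and in stem and multipotent cells, Cdkn1b in basophils and mast cells (142 CPM in the Lztr1 knockout, 138 in Rit1-M90I and 137 in the control, a range that overlaps NK and innate lymphoid cells), and Cdkn2c in erythroblasts (68.0 CPM in the Lztr1 knockout, 59.0 in Rit1-M90I and 55.7 in the control).

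Across the 39 points of 13 populations in 3 libraries, the highest Pearson correlations between genes of this set, on log2 of CPM + 10, were 0.74 for Ccnd3 with Cdkn2c, 0.69 for Cdkn1b with Cdkn2d and 0.65 for Ccnd1 with Cdkn1a. Cdk4 and Cdkn1b had the lowest, -0.55. The points share libraries, depth and populations, so these values describe the profiles and carry no test. Over the 15 points of the 5 populations with at least 100 cells in every library, and among 4630 genes reaching 50 CPM in at least 1 point, the gene most like Ccnd1 was Otub1 (0.95), followed by Lmnb1 and Inip. Those most like Ccnd2 were Prps2 (0.97), Arglu1 and Sdc1, and those most like Ccnd3 were Madd (0.98), H2-T23 and Stk10. Ssrp1 (0.99), Prmt1 and Impdh2 were nearest to Cdk4, and Sinhcaf (0.94), Fam92a and Nacc1 to Cdk6. Usp22 (0.97), Gpr171 and Zdhhc8 were nearest to Cdkn1a, and Ints6l (0.99), P2rx4 and Fyn to Cdkn1b. For Cdkn2c these were S100a10 (0.92), Capg and Atp6v1g1, and for Cdkn2d Cd300lb (0.98), Anxa6 and Sike1. Cdkn1c, with few UMIs, reached only 0.75 with Riok1, before Zrsr2 and Ecpas. With all 13 populations the nearest genes differed for every member but Impdh2 with Cdk4. The nearest to Ccnd1 was then Plxnb2 (0.92), and the nearest to Cdkn1c were the stem cell gate markers Hlf (0.81), Mecom and Vldlr.

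Between genotypes the clearest differences were in Ccnd1 and Ccnd2 of the monocyte lineage, where Rit1-M90I was low and the Lztr1 knockout high. Monocyte lineage cells had 102 CPM of Ccnd1 (92.4 to 113, 399 UMIs) in the Lztr1 knockout, 41.9 (38.6 to 45.4, 598 UMIs) in Rit1-M90I and 83.2 (77.1 to 89.7, 687 UMIs) in the control, so the 3 intervals did not overlap. Rit1-M90I was at 0.50 (0.45 to 0.56) of the control, a log2 ratio of -0.85 on the CPM + 10 scale, and the Lztr1 knockout was 1.23-fold the control (1.08 to 1.39) and 2.44-fold Rit1-M90I (2.14 to 2.77). Ccnd2 followed the same order with 232 CPM (217 to 247) in the Lztr1 knockout, 129 (123 to 135) in Rit1-M90I and 191 (181 to 200) in the control. Rit1-M90I was at 0.68 of the control (0.63 to 0.73), the Lztr1 knockout 1.22-fold the control (1.12 to 1.32) and 1.79-fold Rit1-M90I (1.65 to 1.94). Ccnd3 did not follow it, with 92.4 CPM in the Lztr1 knockout, 88.4 in Rit1-M90I and 115 in the control, the control above both mutants.

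The lower Ccnd1 was spread over cells. In cells thinned to 3000 UMIs, 27.9% of monocyte lineage cells had a Ccnd1 UMI in the Lztr1 knockout, 12.5% in Rit1-M90I and 20.8% in the control. Before thinning the shares were 58.7% in the Lztr1 knockout, 30.4% in Rit1-M90I and 43.2% in the control, and median depths were 13550 UMIs in the Lztr1 knockout, 11876 in Rit1-M90I and 10388 in the control. The erythroblast shares given above serve as the background for this gene. Markers of plasmacytoid dendritic cells, where Ccnd1 is highest, summed in the monocyte gate to 609 CPM in the Lztr1 knockout, 469 in Rit1-M90I and 609 in the control, with 9 to 10 of 11 detected and Klk1 at 0 in every library. Siglech, the most specific of them, had 4.86 CPM in the Lztr1 knockout, 5.11 in Rit1-M90I and 6.06 in the control. Neutrophil markers summed to 8416 CPM in the Lztr1 knockout, 9755 in Rit1-M90I and 8423 in the control with 8 to 9 of 12 detected, and Ltf, Camp and Ngp were at 0 in all libraries. Csf1r, which defines the monocyte lineage, was level at 138 CPM in the Lztr1 knockout, 139 in Rit1-M90I and 144 in the control. The part of these markers in the Ccnd1 difference was not tested.

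Genes were counted as past the threshold when the ratio reached 1.5-fold on the CPM + 10 scale, among genes with a mean of at least 20 CPM, in the 5 populations with at least 100 cells in every library. For Rit1-M90I over control, 1 of the 32 values of the set did so (Ccnd1 in the monocyte lineage, lower), beside 0.419% of all 27949 gene values. For the Lztr1 knockout over control it was 2 of 33, beside 0.51% of all. For the Lztr1 knockout over Rit1-M90I it was 3 of 32, all higher, beside 0.69%. Over all kept cells none of 7 passed for the Lztr1 knockout over control (0.523% of all genes), none of 7 for Rit1-M90I over control (0.545%) and 1 of 7, Ccnd1, for the Lztr1 knockout over Rit1-M90I (1.16%). The first 2 comparisons share the control library. The medians of the set over the 5 populations were 0.07, -0.12 and 0.08 on the log2 scale for the Lztr1 knockout over control, Rit1-M90I over control and the Lztr1 knockout over Rit1-M90I, beside 0.02, -0.02 and 0.04 for all genes.

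Lymphoid progenitors held the other calls. Ccnd1 had 67.6 CPM (56.2 to 80.6, 124 UMIs) in the Lztr1 knockout, 36.6 (31.0 to 42.9, 151 UMIs) in Rit1-M90I and 40.2 (34.1 to 47.0, 155 UMIs) in the control, giving the Lztr1 knockout a ratio of 1.68 (1.32 to 2.14) to the control and 1.85 (1.45 to 2.36) to Rit1-M90I. Under 13 other settings of the processing the ratio to the control passed 1.5-fold in 9. Cdkn2d had 20.2 CPM (14.2 to 27.8, 37 UMIs) in the Lztr1 knockout, 30.7 (25.6 to 36.6, 127 UMIs) in Rit1-M90I and 35.8 (30.0 to 42.2, 138 UMIs) in the control, with the Lztr1 knockout at 0.56 of the control (0.38 to 0.82). Its log2 ratio of -0.60 lay just past the threshold and was -0.27 when cells without a margin over the next gate were admitted, and 8 of 13 other settings kept it past 1.5-fold. Cdkn2c had 9.26 CPM in the Lztr1 knockout, 13.6 in Rit1-M90I and 15.8 in the control, below the 20 CPM minimum, with the Lztr1 knockout at 0.59 of the control (0.32 to 1.02). Rit1-M90I had lower Ccnd3 (112 CPM against 146 in the control, ratio 0.77, 0.68 to 0.87) and Ccnd2 (363 against 431 CPM, ratio 0.84, 0.79 to 0.90) in this gate, both short of 1.5-fold. Markers of plasmacytoid dendritic cells summed to 1111 CPM in the Lztr1 knockout, 1039 in Rit1-M90I and 1036 in the control, with 10 of 11 detected and Klk1 at 0, and the S phase list to 4610 CPM in the Lztr1 knockout, 3647 in Rit1-M90I and 4149 in the control. Their part in the Ccnd1 values was not tested.

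Ccnd1 was also higher in both mutants than in the control in erythroid progenitors and in basophils and mast cells, where it is scarce, and in neutrophil progenitors in the Lztr1 knockout. Erythroid progenitors had 20.04 CPM (17.0 to 23.5, 154 UMIs) in the Lztr1 knockout, 17.0 (14.9 to 19.3, 234 UMIs) in Rit1-M90I and 8.13 (6.80 to 9.63, 133 UMIs) in the control. The ratio to the control was 2.47 (1.94 to 3.13) for the Lztr1 knockout and 2.09 (1.68 to 2.61) in the Rit1-M90I library. These comparisons lay below the 20 CPM minimum and were not counted as calls. Siglech in these cells had 0 CPM in the Lztr1 knockout, 0.727 in Rit1-M90I and 0.428 in the control. Csf1r had 0.521 CPM in the Lztr1 knockout, 1.38 in Rit1-M90I and 0.672 in the control. The whole plasmacytoid dendritic list (8 to 10 of 11 detected) summed there to 165 CPM in the Lztr1 knockout, 160 in Rit1-M90I and 164 in the control. The monocyte list (12 of 12 detected) summed to 22.8 CPM in the Lztr1 knockout, 57.1 in Rit1-M90I and 25.4 in the control, highest in Rit1-M90I. The part of these transcripts in the Ccnd1 values was not tested.

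Neutrophil progenitors had 17.7 CPM of Ccnd1 (13.4 to 22.9, 57 UMIs) in the Lztr1 knockout, 6.51 (5.31 to 7.89, 103 UMIs) in Rit1-M90I and 5.78 (4.25 to 7.69, 47 UMIs) in the control. The Lztr1 knockout was 3.05-fold the control (2.04 to 4.59), while Rit1-M90I was at 1.13 of it (0.79 to 1.63). There the monocyte list (11 to 12 of 12 detected) summed to 1446 CPM in the Lztr1 knockout, 1390 in Rit1-M90I and 1301 in the control, and the plasmacytoid dendritic list (7 to 10 of 11 detected, Klk1 at 0) to 242 CPM in the Lztr1 knockout, 235 in Rit1-M90I and 257 in the control. Basophils and mast cells had 7.04 CPM (9 UMIs) in the Lztr1 knockout, 5.34 (26 UMIs) in Rit1-M90I and 0.80 (3 UMIs) in the control, with ratios to the control of 8.81 (2.20 to 50.6) for the Lztr1 knockout and 6.69 (2.05 to 34.5) in the Rit1-M90I library. The monocyte list in this gate (12 of 12 detected) summed to 719 CPM in the Lztr1 knockout, 803 in Rit1-M90I and 689 in the control. Of its members, Csf1r had 8.61 CPM in the Lztr1 knockout, 6.58 in Rit1-M90I and 2.66 in the control, and F13a1 had 24.3 CPM in the Lztr1 knockout, 28.4 in Rit1-M90I and 11.7 in the control. The plasmacytoid dendritic list (7 to 10 of 11 detected, Klk1 at 0 in every library) summed to 255 CPM in the Lztr1 knockout, 250.4 in Rit1-M90I and 273 in the control. T cells had 37.5 CPM of Ccnd1 in the Lztr1 knockout, 5.80 in Rit1-M90I and 1.44 in the control, but the 9 UMIs of the Lztr1 knockout came from 4 cells and 4 of them from a single cell. In the T cell gate the monocyte list (10 to 12 of 12 detected) summed to 996 CPM in the Lztr1 knockout, 1052 in Rit1-M90I and 933 in the control, of which Csf1r held 29.2 CPM in the Lztr1 knockout, 7.73 in Rit1-M90I and 3.59 in the control. The plasmacytoid dendritic list there (8 to 9 of 11 detected, Klk1 at 0) summed to 417 CPM in the Lztr1 knockout, 247 in Rit1-M90I and 175 in the control. The neutrophil list (7 of 12 detected, with Fcnb, Ltf, Camp, Ngp and Chil3 at 0) summed to 1404 CPM in the Lztr1 knockout, 1024 in Rit1-M90I and 304 in the control. The part of such transcripts in the Ccnd1 values was not tested.

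Over all kept cells Ccnd1 had 52.1 CPM (49.4 to 54.9) in the Lztr1 knockout, 28.8 (27.6 to 30.0) in Rit1-M90I and 34.9 (33.5 to 36.4) in the control. The Lztr1 knockout was 1.81-fold Rit1-M90I (1.69 to 1.93), but among cells low in proliferation genes the direction turned, with a log2 ratio of -0.14 against 0.68 in all kept cells. Plasmacytoid dendritic cells, with 93 Lztr1 knockout cells, were not among the 5 gates counted. There Rit1-M90I was below the control for Ccnd2 (223 against 290 CPM, ratio 0.77, 0.67 to 0.88), Ccnd3 (313 against 446 CPM, ratio 0.70, 0.63 to 0.79), Cdk6 (273 against 354 CPM, ratio 0.77, 0.68 to 0.87) and Cdkn2d (97.1 against 132 CPM, ratio 0.74, 0.60 to 0.91). Its Ccnd1 was not lower there, at 1.10 of the control (0.97 to 1.24). The share of plasmacytoid dendritic cells high in proliferation genes was 85.2% in the Lztr1 knockout, 58.6% in Rit1-M90I and 77.6% in the control, and its part in these values was not tested.

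Stem and multipotent cells went the other way for Ccnd3, with 94.98 CPM in the Lztr1 knockout, 128 in Rit1-M90I and 89.6 in the control, which put Rit1-M90I at 1.43-fold the control (1.14 to 1.80). Their Cdk6 was level, the Lztr1 knockout being at 1.03 (0.92 to 1.15) of the control, and Rit1-M90I at 0.98 (0.90 to 1.07). Cdk4 in this gate was 287 CPM in the Lztr1 knockout, 229 in Rit1-M90I and 222 in the control, ratios to the control of 1.29 (1.07 to 1.56) for the Lztr1 knockout and 1.03 (0.88 to 1.21) in the Rit1-M90I library. The Lztr1 knockout had 63 cells in it, and 43.5% of them were high in proliferation genes, against 25.7% in Rit1-M90I and 28.6% in the control. In NK and innate lymphoid cells the Lztr1 knockout had 116 CPM of Ccnd3 from 25 UMIs, against 229 CPM in the control, a ratio of 0.50 (0.31 to 0.78). Of Cdk4 and Cdk6 no value in the 5 counted gates passed 1.5-fold, and the ratios to the control lay between 0.81 and 1.15.

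**Figure D3:**
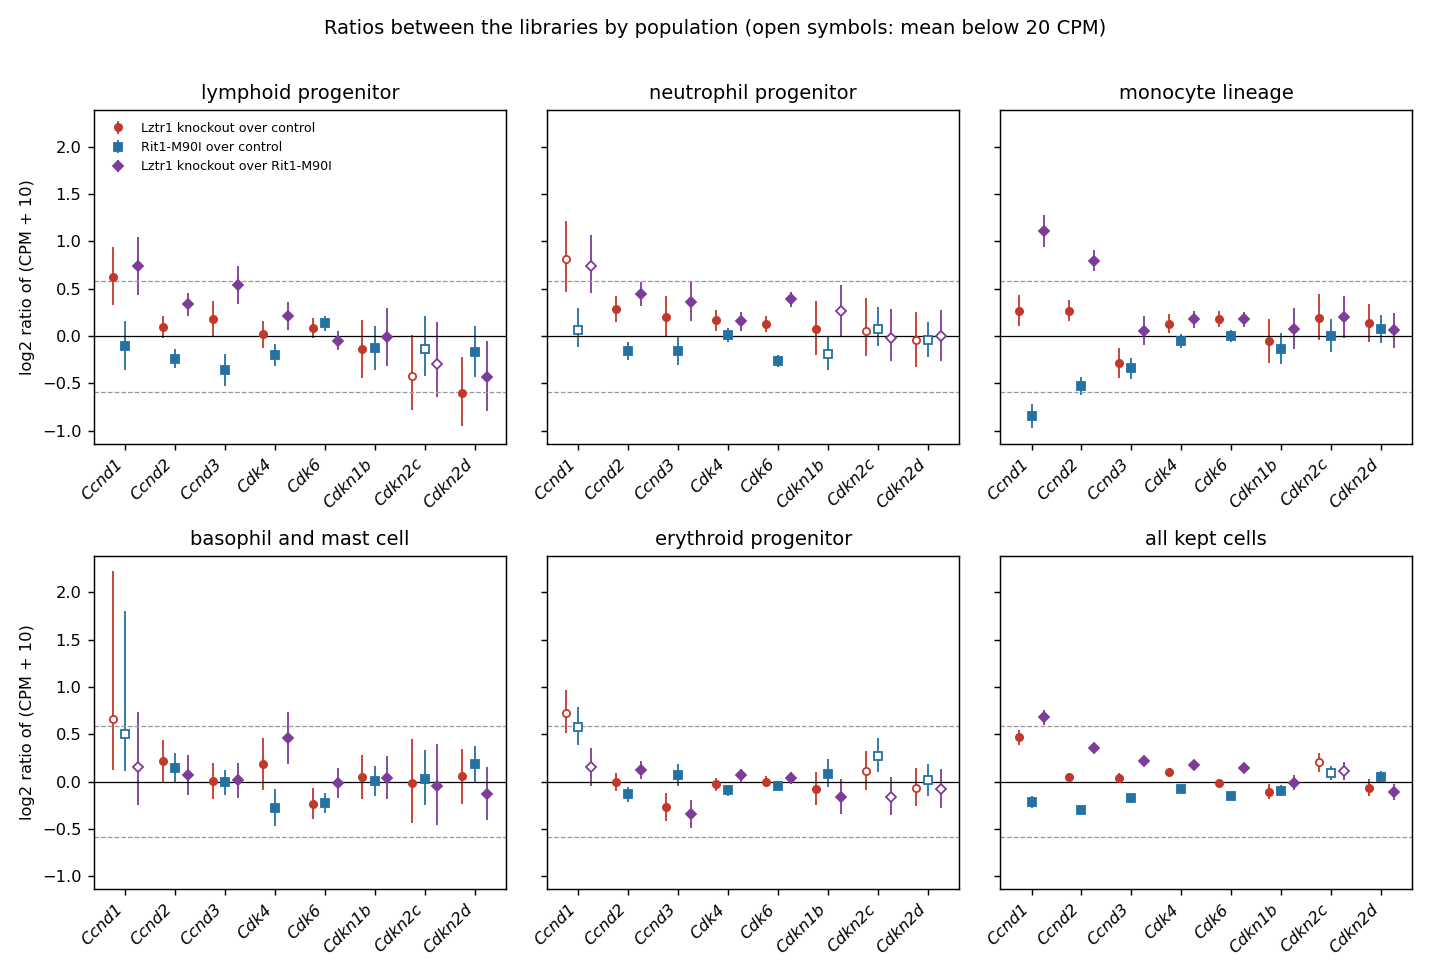
Log2 ratios of CPM + 10 (vertical axis) for 8 genes in the 5 counted populations and all kept cells; circles are the Lztr1 knockout over control, squares Rit1-M90I over control and diamonds the Lztr1 knockout over Rit1-M90I, with 95% intervals for counting error, dashed lines at 1.5-fold and open symbols for genes with a mean under 20 CPM. The monocyte lineage holds the widest spread, with Ccnd1 at -0.85 for Rit1-M90I over control and at 1.11 for the Lztr1 knockout over Rit1-M90I.

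Cells were next divided by 15 proliferation genes, none of them in the set, after thinning to 3000 UMIs, with at least 3 UMIs as high and 0 as low. This gave 13 values from 6 populations in which both classes held at least 30 cells. Cdk4 was higher in the high cells in 8 of the 13, with the interval of the ratio above 1, lower in none, and the median log2 ratio was 0.64. Erythroid progenitors had 312 CPM in high cells against 227 in low cells of the Lztr1 knockout, 304 against 175 in Rit1-M90I and 319 against 176 in the control. Cdkn2c, an inhibitor, was likewise higher in 8 of 13 and lower in none, with a median log2 ratio of 1.13. Basophils and mast cells had 62.3 CPM of Cdkn2c in high cells against 6.06 in low cells of Rit1-M90I, a ratio of 10.3 (3.87 to 38.5), and 54.6 against 4.86 in the control, a ratio of 11.2 (3.67 to 55.9). In the Lztr1 knockout these cells had 42.8 CPM against none. Cells under 3000 UMIs were left out of the division. Among basophils and mast cells these were 136 of 301 in the Lztr1 knockout, 909 of 1518 in Rit1-M90I and 657 of 1130 in the control.

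Ccnd2 and Cdk6 were lower in high cells in 6 of 13 values each. Cdk6 was higher in none, and Ccnd2 was higher in 1, the neutrophil progenitors of the control (152 CPM in high against 111 in low cells, ratio 1.37, 1.06 to 1.81). In erythroid progenitors Ccnd2 had 124 CPM in high cells against 374 in low cells of the Lztr1 knockout, 116 against 362 in Rit1-M90I and 136 against 297 in the control. Cdk6 in these cells had 374 CPM in high against 704 in low cells of the Lztr1 knockout, 360 against 752 in Rit1-M90I and 369 against 790 in the control. Basophils and mast cells gave the same direction for both genes in all 3 libraries, while lymphoid and neutrophil progenitors gave no lower value for either. Cdkn1b was lower in high cells in 4 of 13, among them all 3 erythroid progenitor values, with 23.6 against 45.9 CPM in the Lztr1 knockout, 25.2 against 49.2 in Rit1-M90I and 23.3 against 60.7 in the control.

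Cdkn2d split by lineage, being higher in high basophils and mast cells of Rit1-M90I (152 against 37.9 CPM) and the control (129 against 27.6 CPM) and lower in high erythroid progenitors of the Lztr1 knockout (8.83 against 24.5 CPM) and the control (9.94 against 25.1 CPM). Ccnd1 held an interval with 1 in 12 of 13 values, and Ccnd3 was higher in 3 of 13. With at least 5 UMIs as high, 12 values remained, among which Ccnd1 was lower in 2 and higher in none, against none lower and 1 higher with 3 UMIs. Cdkn2d was then higher in 4 and lower in 2, against 2 and 2, and Ccnd2 was lower in 8 and higher in none. Low cells within a gate may also be at another stage of maturation, which was not tested. The monocyte lineage, with high cells at 85.4% in the Lztr1 knockout, 85.0% in Rit1-M90I and 80.5% in the control, had too few low cells for this division. Its lower Ccnd1 in Rit1-M90I was present among high cells, with a log2 ratio of -0.92 to the control. High cells are most of this gate, so that value adds little to the -0.85 of the whole gate.

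**Figure D4:**
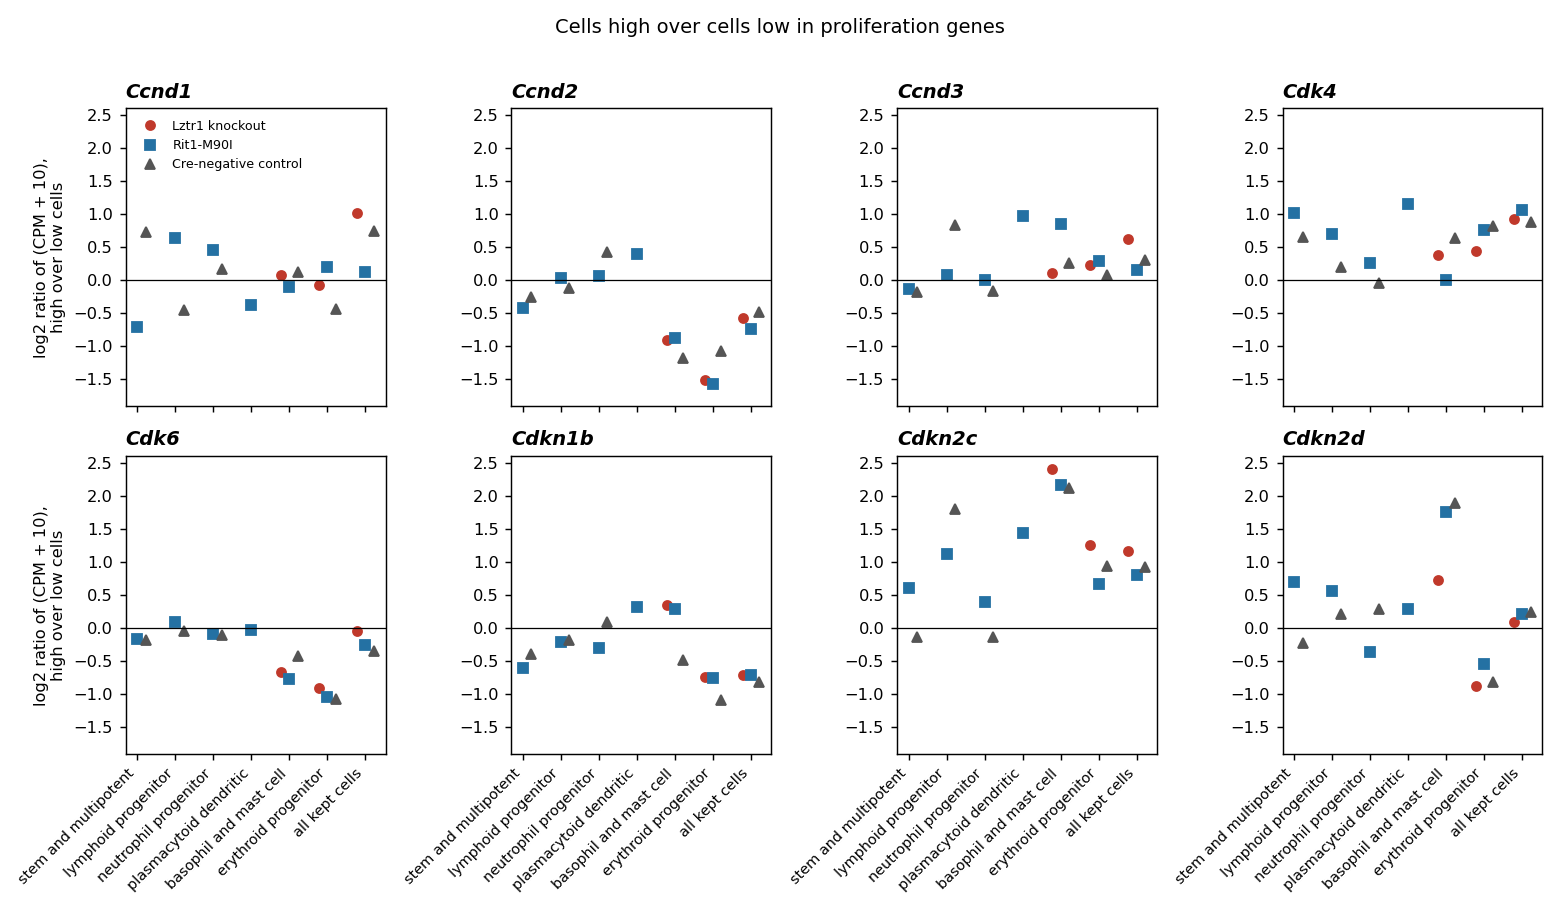
Log2 ratios of CPM + 10 in cells high over cells low in proliferation genes (vertical axis) for 8 genes in the populations with at least 30 cells of each class and in all kept cells; circles are the Lztr1 knockout, squares Rit1-M90I and triangles the control. Cdk4 and Cdkn2c lie mostly above 0 (medians of 0.64 and 1.13), and Ccnd2, Cdk6 and Cdkn1b lie mostly below it.

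The genes that act next in the pathway were set beside the share of all genes past 1.5-fold. Of 27 RB, E2F and G1/S control genes, 22 reached 20 CPM over all kept cells, and none passed 1.5-fold in the Lztr1 knockout (beside 0.523% of all genes) or in Rit1-M90I (beside 0.545%) against the control. At these shares a list of this size is not set apart by a count of 0. Their median log2 ratio was 0.14 for the Lztr1 knockout and -0.06 in the Rit1-M90I library, beside 0.02 and -0.05 for all genes in the same comparisons. The highest in the Lztr1 knockout were E2f3 (40.3 against 30.4 CPM in the control, ratio 1.32, 1.23 to 1.43), an activating E2F, and Ccna2 (86.7 against 68.9 CPM, ratio 1.26, 1.20 to 1.32), the S phase cyclin A2. The lowest were Rbl2 (ratio 0.92), which encodes the RB relative p130, and Lin37 (0.95), a subunit of the DREAM complex. In Rit1-M90I the highest were the cyclin E2 gene Ccne2 (25.0 against 21.6 CPM, ratio 1.16) and E2f3 (1.14), and the lowest were the cyclin E1 gene Ccne1 (32.0 against 36.5 CPM, ratio 0.88) and the phosphatase gene Cdc25a (0.89). Between the mutants, E2f8 and E2f6 were highest in the Lztr1 knockout over Rit1-M90I (1.32 and 1.40) and Rbl2 and Ccnh lowest (0.95 and 1.02). Of kept cells with at least 3000 UMIs, 66.2% were high in proliferation genes in the Lztr1 knockout, 60.2% in Rit1-M90I and 58.4% in the control. The part of this share and of the population mix in the list values was not tested. In single gates, 1 of 15 genes tested passed, higher, in neutrophil progenitors of the Lztr1 knockout over control, where 33 of all 5209 genes passed. In lymphoid progenitors 1 of 20 passed, higher, for the Lztr1 knockout over Rit1-M90I, where 63 of all 6011 genes passed.

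Among 15 p53 targets other than Cdkn1a, 5 reached 20 CPM in the Lztr1 knockout comparison and 6 in that of Rit1-M90I, and none passed 1.5-fold in either, beside 0.523% and 0.545% of all genes in those comparisons, so the count of 0 does not set the list apart. The median log2 ratio was 0.01 for the Lztr1 knockout and -0.08 in the Rit1-M90I library. Aen, a nuclease gene, had 33.0 CPM in the Lztr1 knockout, 24.5 in Rit1-M90I and 31.5 in the control, and its ratio of 0.78 (0.73 to 0.83) in Rit1-M90I was the lowest of the list there, followed by Ei24 (0.88). Bax, a death effector gene, was level at 107 CPM in the Lztr1 knockout, 104 in Rit1-M90I and 106 in the control, and Trp53inp1 was highest in Rit1-M90I (ratio 1.05). In the Lztr1 knockout the highest was Aen (1.05) and the lowest were Ei24 (0.92) and Mdm2 (0.98). Between the mutants, Aen (1.35) and Ccng1 (1.14) were highest and Trp53inp1 (0.81) and Mdm2 (1.01) lowest in the Lztr1 knockout over Rit1-M90I. Over all kept cells Cdkn1a itself had 10.5 CPM in the Lztr1 knockout, 10.2 in Rit1-M90I and 10.0 in the control, with ratios to the control of 1.05 (0.91 to 1.21) for the Lztr1 knockout and 1.01 (0.91 to 1.13) in the Rit1-M90I library.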

How the data were processed

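The 3 marrow libraries of 10x 3' single-cell RNA were used. The deposited matrices hold raw UMI counts per gene and barcode, made by the authors with Cell Ranger 6.1.1 against mm10, per the submitters' processing notes, which also name Seurat 4.1.0. The sources used here do not state whether introns or strand entered the counting. Every deposited barcode held at least 500 UMIs. Cells with at least 1000 UMIs, 500 genes and at most 10% mitochondrial UMIs were kept, and Scrublet (scanpy 1.11.5) removed 83 doublets from the Lztr1 knockout, 466 from Rit1-M90I and 261 from the control.

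A cell entered a population when it had at least 3 of its gate markers with a UMI, a mean standardised log2(1 + UMIs per 10000) of at least 0.5 (capped at 5) and a margin of 0.2 over the next. UMIs were summed per population and library and scaled to CPM here. Levels have exact Poisson 95% intervals and ratios exact conditional binomial ones, from scipy 1.17.1 (Python 3.11.15, numpy 2.4.6); log2 ratios use CPM + 10. UMIs of a cell are not replicates, so intervals cover counting error only, and with 1 library per genotype there is no test, no p-value and no replicate check.

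Named genes are all 10 of the set, the 2 highest and 2 lowest of the RB-E2F and p53 target lists over all kept cells with at least 20 CPM, and the 3 genes most correlated with each. The genes and lists were chosen with earlier results of these data known. The calculations were tested on simulated data. The alternatives were pseudocounts of 1 and 50 CPM, median-of-ratios size factors, means over cells, no minimum CPM, other cell filters and gate rules, doublets kept, Leiden clusters (leidenalg 0.10.2) and cells split by proliferation genes; added after seeing the data were the control's population mix, CPM without globin and immunoglobulin, and correlations over 13 populations. Positions are mm10 (GENCODE), and upstream windows are from RefSeq GRCm38.p6.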

Additional observations from a re-analysis of the deposited data

Results flagged for a closer look

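In 3 flagged cases the same contrast went opposite ways in 2 populations, with intervals on opposite sides of 1. The differences themselves were not tested. They are not the only such cases among the values given above. Ccnd1 in Rit1-M90I was below the control in the monocyte lineage and above it in erythroid progenitors and in basophils and mast cells. Ccnd3 in Rit1-M90I was below the control in lymphoid progenitors and above it in stem and multipotent cells. Ccnd3 in the Lztr1 knockout was 1.49 times its Rit1-M90I level in lymphoid progenitors (167 against 112 CPM) and 0.759 times in erythroid progenitors (50.1 against 66.1 CPM). Cdk6 in the Lztr1 knockout was 1.13 times the control in the monocyte lineage (413 against 364 CPM) and 0.848 times in basophils and mast cells (298 against 351 CPM). Cdk6 in Rit1-M90I was 1.10 times the control in lymphoid progenitors (592 against 539 CPM) and 0.829 times in neutrophil progenitors (362 against 436 CPM). All 6 ratios of the 3 flagged cases lie within 1.5-fold.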

How the results depend on the processing

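Counts are of values past 1.5-fold over the 5 populations, with 2 for the Lztr1 knockout over control, 1 for Rit1-M90I over control and 3 for the Lztr1 knockout over Rit1-M90I as reported, and 1 for the last over all kept cells. For the Lztr1 knockout over control the count was 0 with 50 CPM added (0.106% of all gene values passed) and with gates on thinned cells (0.716%). It was 1 with means over cells (0.790%), the stricter filter (0.561%), every deposited barcode (0.475%), no margin (0.502%) or cells high in proliferation genes (2.04%). With no minimum CPM it was 5 of 50, beside 0.194% of all. In cells low in proliferation genes it was 9, where 24.5% of all gene values passed. For Rit1-M90I over control it was 0 with 50 CPM added (0.136% of all) and 2 in cells low (12.6%) or high (1.06%) in proliferation genes. For the Lztr1 knockout over Rit1-M90I it was 7 in low cells (25.5% of all) and 5 in high cells (1.96%). It was 4 with 1 CPM added (1.90%) or no minimum CPM (0.234%), and 2 with 50 CPM added (0.199%). Over all kept cells this comparison gave 0 with 50 CPM added (0.392%) and in low cells (1.12%). In those low cells the log2 ratio of Ccnd1 was -0.14, a small value given without a counting interval. The cause was not tested, beyond fewer cells and UMIs in the subsets. Over the alternatives run, the monocyte log2 ratios of Ccnd1 lay between -1.03 and -0.54 for Rit1-M90I over control and between 0.73 and 1.27 for the Lztr1 knockout over Rit1-M90I, and that of Ccnd2 between 0.65 and 0.84. In lymphoid progenitors Ccnd1 lay between 0.38 and 0.80 for the Lztr1 knockout over control and Cdkn2d between -0.80 and -0.27. With the populations weighted as in the control, Ccnd1 over all kept cells had log2 ratios of 0.46 and -0.19 for the Lztr1 knockout and Rit1-M90I over control. Of 1561 values under alternatives, 1427 stayed within the counting interval or side of the threshold, 133 moved and 1 reversed. Subsets under 30 cells gave no ratio for a single gene. They did enter the counts in low cells, where the Lztr1 knockout had 7 neutrophil progenitors and 8 monocyte lineage cells. No paired analysis was possible because each genotype has 1 library. Genes under 20 CPM, Cdkn1c and Cdkn1a in most gates, are limited by depth.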
